A study of Mus musculus with 6 samples.

Results

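The circular RNAs (circRNAs) of 10 transcription factor genes that specify or maintain cell lineages were described in the mouse aorta. The genes are Glis3, Foxp1, Tead1, Mef2a, Nfia, Nfib, Nfix, Tcf4, Tcf12 and Ebf1. They were chosen from earlier results of these same back-spliced read counts, in which the diet difference of a Glis3 circle was already known, so their diet differences are given as a description. Their entries are all rows of the circRNA table whose host gene is one of the 10, which came to 41 of 10023 entries and 10 of 3981 host genes.

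The study compared aortas of male ApoE-/- mice on the C57BL/6 background, a strain that develops atherosclerosis. From 6 weeks of age the mice were given a high-fat diet (HFD) or a normal chow diet for 12 weeks, and 3 aortas were sequenced from each diet. All 6 libraries therefore came from animals without ApoE, and no wild-type aorta was measured. RNA was depleted of ribosomal RNA, and reads that cross a back-splice junction were counted. The paper names RNase R, which digests linear RNA, for isolating circRNA, and does not list it among the library steps. The HFD aortas held 4694, 5621 and 4875 back-spliced reads in replicates 1 to 3, and the chow aortas held 7585, 7142 and 7476. All per-aorta values below follow that order. Levels are given as reads per 10000 back-spliced reads of the same aorta. A junction is 1 point in an RNA whatever its length, so junction reads were not divided by length.

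An exonic circRNA forms when the end of an exon is spliced back to the start of the same exon or of an exon upstream. This leaves a closed loop without ends. The proteins of these host genes bind DNA and set cell identity: nuclear factor I (NFI) proteins act in many developing tissues, Mef2a in muscle, Tead1 as the DNA-binding partner of the Hippo pathway coactivators Yap1 and Wwtr1, Ebf1 in B lymphocytes and adipocytes, and the E proteins Tcf4 and Tcf12 as partners of tissue-specific helix-loop-helix factors. An exonic circle carries exons of the host gene, and the reads of a circle do not measure the host gene's mRNA.

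A single circle made up most of the reads of the 10 genes. The 41 entries held 828 reads, which were 2.21% of all 37393 back-spliced reads, and Nfix alone held 714 of them (86.2%). The other 9 genes held 114 reads in 37 entries, 58 in HFD aortas and 56 in the more deeply read chow aortas. Per 10000 back-spliced reads these 9 genes summed to 42.6, 32.0 and 41.0 on HFD and 34.3, 22.4 and 18.7 on chow, which overlapped, with means of 38.6 ± 5.71 and 25.1 ± 8.13 (SD, n = 3 each). Among the 9 is Glis3, at means of 17.9 on HFD and 4.51 on chow. The diet difference of a Glis3 circle was known when the genes were chosen, so the sum is not a tendency of all 9. Of the 41 entries, 37 had at most 5 reads and 32 were seen in a single aorta (78.0%, against 74.4% over the whole table). The median entry had 2 reads, the same as over the whole table. Reads came from HFD aortas alone for 13 entries (31.7%, against 33.4% over the whole table), from chow aortas alone for 22 (53.7%, against 47.3%) and from both diets for 6 (14.6%, against 19.3%).

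By reads per gene, Nfix ranked 1 of all 3981 host genes and Glis3 ranked 161, followed by Foxp1 at 398, Ebf1 at 498, Mef2a at 621, Nfib at 669, Nfia at 812 and Tcf12 at 1823, while Tead1 and Tcf4 tied at 2194. Nfix stood apart from the other 9 genes in every aorta. Glis3 was above the rest on HFD, and from Foxp1 to Nfia neighbours in the order did not differ beyond their spread over aortas. For a gene seen at 0 reads, the limit that 3 reads set was 5.34 to 6.39 per 10000 on HFD and 3.96 to 4.20 on chow. Intervals and limits here cover counting error only.

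**Figure D1:**
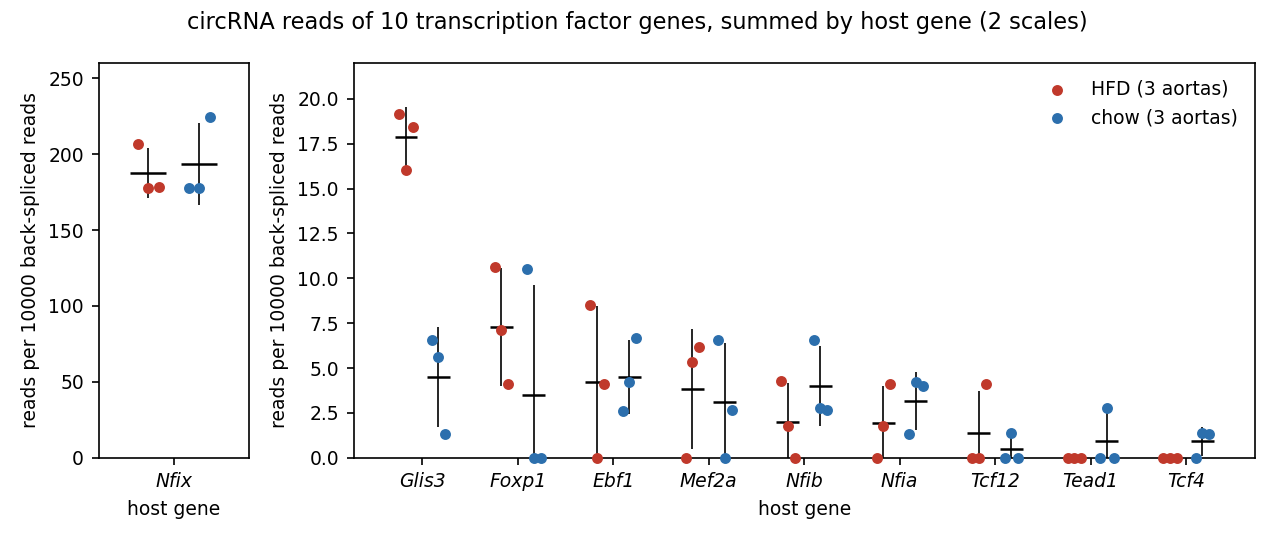
Reads per 10000 back-spliced reads (vertical axis) of each host gene, summed over its circRNAs, with 1 point per aorta, the mean as a horizontal bar and the SD as a vertical line that stops at 0. Nfix, on its own scale, lies between 178 and 225 in all 6 aortas, and the other 9 genes lie at or below 19.2.

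Nfix encodes an NFI protein that acts in muscle and in the nervous system. Its leading circle, mmu_circ_0001704, was read 97, 98 and 87 times under HFD and 134, 127 and 164 times under chow. With 707 reads it was the most read circRNA of the whole table, in which it took 1.89% of all reads. It had 1.72 times the reads of the second circRNA, a Tulp4 circle with 411. It ranked first in 5 aortas and second, behind the Tulp4 circle, in HFD replicate 2.

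The circle is exon 2 of 11 alone (chr8:84771784-84772315, minus strand, in GENCODE vM21 coordinates on GRCm38). It is 532 nt long and all of it is coding sequence. The intron before it is short, at 1.04 kb, and the intron after it is 43.8 kb. Among the circRNAs of 1 exon it held 18.9% of 3750 reads, 4.39 times the 161 reads of the next, a Hipk3 circle. The other 3 Nfix entries were minor. A circle of exons 3 to 8 stood in the table as 2 entries with starts 1 base apart, circRNA6091 with 4 reads in chow replicate 3 and mmu_circ_0015053 with 1 read in chow replicate 1. A circle of exons 2 to 8, mmu_circ_0015054, had 2 reads in HFD replicate 2.

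Whether the diets overlapped for the Nfix circle depended on the scale. Per 10000 back-spliced reads, its levels were 207, 174 and 178 on HFD and 177, 178 and 219 on chow. The diets overlapped, with means of 186 ± 17.6 and 191 ± 24.3 (SD, n = 3 each). On the authors' scale of reads scaled to the mapped reads of the library (SRPBM) the circle was at 1681, 1625 and 1499 in HFD aortas and 1818, 1746 and 2350 in chow aortas. There the diets did not overlap, and the HFD mean was 1602 ± 93.1 against 1971 ± 330 on chow. Summed over all circRNAs, SRPBM was 81352, 93221 and 84013 in HFD aortas and 102906, 98181 and 107115 in chow aortas, again without overlap. With TMM normalization the circle was at 113, 99.4 and 105 reads on HFD and 124, 116 and 143 on chow, also without overlap. In edgeR with TMM normalization the log2 fold change (HFD over chow) was -0.27 (SE 0.12, unadjusted p 0.030, adjusted p 0.58). This did not meet the study's criteria, p below 0.05 before adjustment with a log2 fold change beyond 1 in either direction. The median log2 fold change over all circRNAs tested was itself -0.18 with TMM, -0.22 with the depth behind SRPBM, and 0.04 where libraries were scaled to their size alone. The Nfix circle was at -0.04 on the last of these. Fewer cells of a type and less RNA per cell cannot be told apart in whole aortas.

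Of 11 smooth muscle marker genes 9 had circRNA reads, 7 were tested and 1, Itga8, met the criteria, where 4.46% of all gene sums tested did. Their summed level was 51.1, 51.6 and 30.8 per 10000 in HFD aortas and 92.3, 65.8 and 96.3 in chow aortas, with no overlap. The most abundant was Itga8, an integrin subunit, with 7, 14 and 6 reads in HFD aortas and 43, 28 and 41 in chow aortas (edgeR log2 fold change -1.71, adjusted p 0.0082). Without Itga8, a split made after its values were seen, the other 8 genes summed to 36.2, 26.7 and 18.5 per 10000 on HFD and 35.6, 26.6 and 41.5 on chow, which overlapped. Tagln and Cnn1 were at 0. The part of smooth muscle in the levels of the 10 genes was not tested.

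The NFI family shares the exon that Nfix circularizes. Exon 2 is 532 nt long in Nfix, Nfia, Nfib and Nfic, and its identity to the Nfix exon was 78.6% in Nfia, 78.6% in Nfib and 82.0% in Nfic. As a circle of this exon alone, Nfix had 707 reads and the other 3 genes had 0. Nfia and Nfib each had 2 circles that start at the exon and run on into later exons, with 2 reads per gene, and Nfic had none. The first 60 bases of the exon are shown to compare the 4 genes, with bases that differ from Nfix in capitals (13 in Nfia, 13 in Nfib and 6 in Nfic).
Nfix exon 2: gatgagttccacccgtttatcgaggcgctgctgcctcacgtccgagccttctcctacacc
Nfia exon 2: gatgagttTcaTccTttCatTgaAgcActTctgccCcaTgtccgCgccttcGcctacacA
Nfib exon 2: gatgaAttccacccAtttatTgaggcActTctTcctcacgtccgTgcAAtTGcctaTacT
Nfic exon 2: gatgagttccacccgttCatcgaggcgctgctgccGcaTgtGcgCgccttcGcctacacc

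Nfia and Nfib, the NFI genes with roles in glia, lung and fat among other tissues, had many rare circles in place of 1 abundant one. Nfia had 5 entries with 0, 1 and 2 reads in HFD aortas and 1, 3 and 3 in chow aortas. Its leading entry, circRNA1579 (exons 3 to 6, 387 nt), had 1 and 2 reads in chow replicates 1 and 2. The entries circRNA6070 and mmu_circ_0011879 are 1 circle (516 nt) with starts 1 base apart, and together they had more reads, 2 in HFD replicate 3 and 3 in chow replicate 3. Nfib had 7 entries with 2, 1 and 0 reads in HFD aortas and 5, 2 and 2 in chow aortas, and each entry was seen in a single aorta. Its leading entry, circRNA2433 (363 nt), had 3 reads in chow replicate 1. The entries circRNA6125 and mmu_circ_0011795 are also 1 circle (309 nt) with starts 1 base apart, and together they had 1 read in chow replicate 1 and 2 in chow replicate 3. The diets overlapped for both genes. The Nfib entry circRNA4414 lies inside the last exon of its transcript and matches no pair of exon ends.

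**Figure D2:**
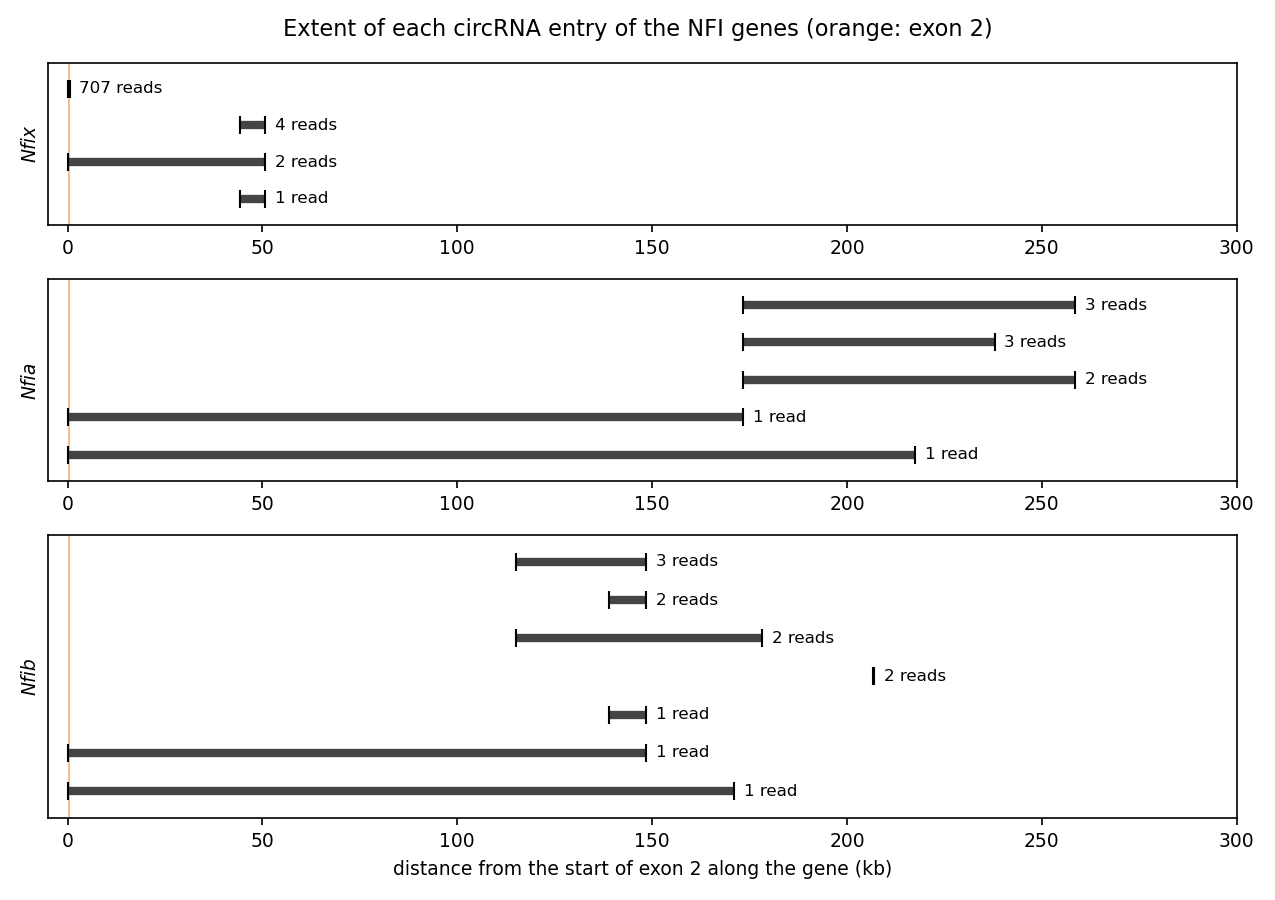
Extent of each circRNA entry of Nfix, Nfia and Nfib, drawn to scale as the distance in kb from the start of exon 2 (horizontal axis), with 1 bar per entry, ticks at the ends and its reads over 6 aortas. The Nfix entry with 707 reads is exon 2 alone, and no Nfia or Nfib entry has more than 3 reads.

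Glis3 encodes a zinc finger factor known for its role in pancreatic beta cells and the thyroid. It gave 9, 9 and 9 reads on HFD and 5, 4 and 1 on chow. The diets did not overlap, at 17.9 ± 1.66 per 10000 on HFD and 4.51 ± 2.79 on chow (SD, n = 3 each). The ratio of HFD to chow was 3.95 (95% counting interval 1.85 to 9.14). In edgeR the gene sum had a log2 fold change of 1.72 (SE 0.71, adjusted p 0.67).

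The reads came from 2 circles that share the end of exon 4. The single-exon circle mmu_circ_0000943 (exon 4 of 11, chr19:28530873-28531986, minus strand) is 1114 nt long and had 5, 7 and 5 reads on HFD and 0, 1 and 1 on chow. Every HFD aorta was above every chow aorta, with a ratio of 12.4 (95% counting interval 2.95 to 111). The genes were chosen with this difference known. With 3 aortas per diet an exact permutation test cannot give p under 0.1, which this circle had on TMM-normalized reads. How many other circRNAs or gene sums separated the diets in this way was not counted. The circle of exons 3 and 4, mmu_circ_0007672 (chr19:28530873-28540408), is 1322 nt long and had 4, 2 and 4 reads on HFD and 5, 3 and 0 on chow, so that the diets overlapped. Of the reads of both circles, summed over the aortas of a diet, exon 4 alone took 17 of 27 on HFD (63.0%, exact 95% counting interval 42.4 to 80.6%). On chow it took 2 of 10 (20%, 2.52 to 55.6%). In single aortas its share was 55.6, 77.8 and 55.6% on HFD and 0, 25 and 100% on chow, where the last value rests on 1 read.

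In edgeR the exon 4 circle had a log2 fold change of 3.16 (SE 1.25, adjusted p 0.58) and the circle of exons 3 and 4 had 0.62 (SE 1.13, adjusted p 0.95). The exon 4 circle and the Glis3 sum met the study's criteria in edgeR, on the same counts from which the genes were chosen. Neither passed adjustment over the whole table. The exon is long for a circle of 1 exon. Of 452 such circRNAs placed on transcripts, with a median of 515.5 nt, 89 were longer. The introns that flank it are 8.21 kb and 172.9 kb. The junctions show the shared exon end in lower case and the start that each circle joins it to in capitals.
Glis3 exon 4 circle: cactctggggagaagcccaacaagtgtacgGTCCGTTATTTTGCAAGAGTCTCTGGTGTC
Glis3 exons 3 and 4 circle: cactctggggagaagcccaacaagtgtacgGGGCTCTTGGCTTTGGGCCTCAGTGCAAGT

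**Figure D3:**
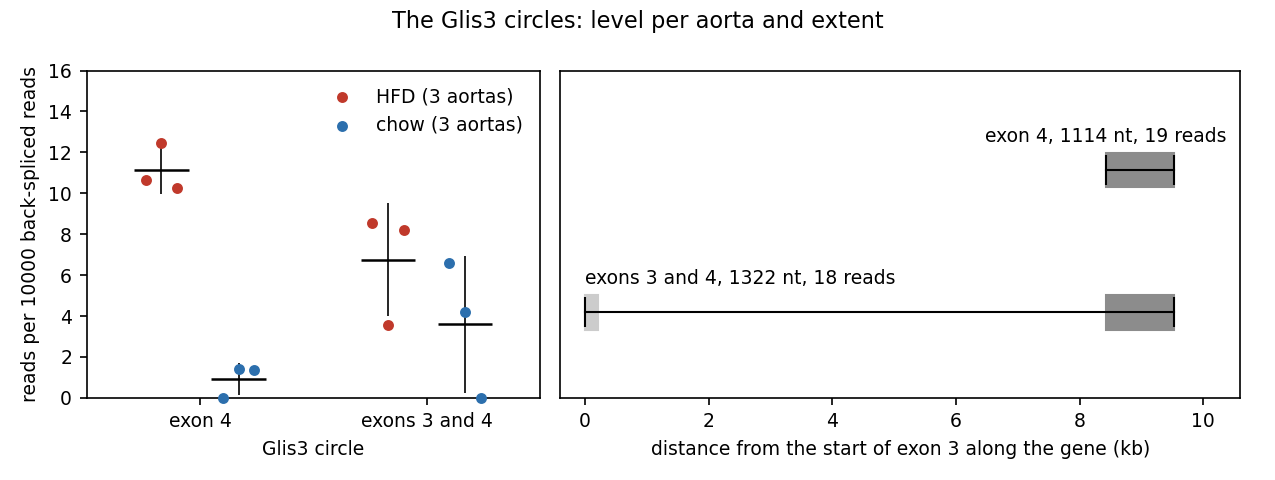
Left, reads per 10000 back-spliced reads (vertical axis) of each Glis3 circle with 1 point per aorta, the mean as a horizontal bar and the SD as a vertical line that stops at 0. Right, both circles to scale in kb from the start of exon 3, with exons as boxes: the exon 4 circle lies between 10.3 and 12.5 in HFD aortas and between 0 and 1.40 in chow aortas.

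Fibroblast and macrophage markers had few reads. Of 6 fibroblast marker genes 3 had reads, 12 in all, and 1 of 2 tested met the criteria, which 4.46% of all gene sums did. They summed to 2.13, 8.90 and 10.3 per 10000 in HFD aortas and 0, 0 and 1.34 in chow aortas, where the lowest HFD value and the highest chow value are 1 read each, under the limit that 3 reads set. The most abundant was Col3a1, a fibrillar collagen, with 0, 5 and 1 reads on HFD and 0, 0 and 0 on chow (edgeR adjusted p 0.67). It was the gene that met the criteria, and it passed the filter through its HFD reads alone, 5 of 6 from 1 aorta. Pdgfra, Col1a2 and Lum were at 0. Of 8 macrophage marker genes 6 had reads, at 17.0, 19.6 and 18.5 per 10000 on HFD and 17.1, 8.40 and 10.7 on chow, which overlapped. Adgre1 was the most abundant of these, and Cd68 and Cd74 were at 0. The part of these cell types in the Glis3 reads was not tested.

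Mef2a, a MADS-box factor of muscle and vessels, had 0, 3 and 3 reads in HFD aortas and 5, 0 and 2 in chow aortas. The diets overlapped. Its leading circle, circRNA2464 (exons 5 to 7, 412 nt), had 0, 3 and 3 reads on HFD and 4, 0 and 0 on chow, and mmu_circ_0014362, with 2 reads in chow replicate 3, is the same circle with a start 1 base away. Tead1 had 1 entry, mmu_circ_0001612, which is exon 2 alone (256 nt) with 2 reads in chow replicate 2. It was the sole member gene with reads in 1 aorta only, and so was not tested.

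Foxp1, a forkhead repressor with roles in heart, lung and lymphocytes, had the most entries of the 10 genes, 9, with 5, 4 and 2 reads in HFD aortas and 8, 0 and 0 in chow aortas. All HFD aortas had Foxp1 circles, and chow replicate 1 held all the chow reads. Its leading circle by the rule for naming circles, circRNA1313 (exons 5 to 8, 581 nt), had 2 reads in HFD replicate 3 and 2 in chow replicate 1. The circle mmu_circ_0013638, with 4 reads in chow replicate 1, and the single-exon circRNA7628 end at the same base as circRNA1313. The log2 fold change of the Foxp1 sum was 0.77 in edgeR (SE 1.02, adjusted p 0.95). Without chow replicate 1 it was 5.07, because the remaining chow aortas had no Foxp1 read. In that fit the Foxp1 sum met the criteria (edgeR adjusted p 0.61), and it passed the filter through its HFD reads alone.

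Ebf1 had 6 entries with 4, 0 and 2 reads in HFD aortas and 2, 3 and 5 in chow aortas, and the diets overlapped for the sum. The leading circle, circRNA6253 (exons 2 to 6, 420 nt), had 3, 0 and 2 reads on HFD and none on chow. The circle circRNA342 (exons 9 and 10, 258 nt), singled out after its values were seen, had none on HFD and 1, 1 and 2 on chow. A circle of exons 7 to 10, circRNA4810, was read under both diets, with 1 read in HFD replicate 1 and 3 in chow replicate 3. None of the 3 met the criteria in the main edgeR fit, with adjusted p from 0.58 to 0.95. With library size alone circRNA6253 met them (edgeR adjusted p 0.63). With reads in at least 3 aortas, and without chow replicate 2, circRNA342 met them (edgeR adjusted p 0.60 and 0.54). In these fits circRNA6253 passed the filter through its HFD reads alone, and circRNA342 through its chow reads alone. Nothing is read from these calls. None of 6 B lymphocyte marker genes had a circRNA read.

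The E proteins had few reads. Tcf12 had 0, 0 and 2 reads in HFD aortas and 0, 1 and 0 in chow aortas, with circRNA9055 (419 nt) leading. Tcf4 had 0, 0 and 0 reads on HFD and 0, 1 and 1 on chow, from 2 circles of 2 exons each, mmu_circ_0000891 and mmu_circ_0000889. No difference between diets was detectable at this depth for either gene.

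Over the 10 genes, the diets overlapped, with 226 ± 20.5 per 10000 on HFD and 219 ± 22.3 on chow. Of the 41 entries, which are 37 distinct circles once the 4 pairs with starts 1 base apart are joined, 9 had reads in at least 2 aortas and were tested (12 with the pairs summed), and 1 met the criteria, the Glis3 exon 4 circle, where 4.06% of all 2564 circRNAs tested did. Of the 10 gene sums 9 were tested and 1 met the criteria, Glis3, where 4.46% of all 2240 gene sums did. No member had an adjusted p under 0.05 in edgeR, DESeq2 or limma. At an unadjusted p under 0.05 alone, edgeR gave 2 of the 9 entries, against 4.17% of all circRNAs tested, and 1 of the 9 gene sums, against 4.60%. The entries were those of Glis3 exon 4 and Nfix exon 2. For the Nfix circle, p was also under 0.05 in limma, and in edgeR with the authors' depth and without chow replicate 2. Under every other alternative run for it p was above 0.05. In edgeR it was 0.088 with the replicate block and 0.77 with library size alone. The circles with low reads passed the filter partly through the diet in which they were seen, and nothing is read from these counts. The median log2 fold change was -0.26 over the 9 gene sums, against -0.17 over all gene sums tested, and 0.30 over the 9 entries, against -0.18 over all circRNAs tested. The median over the circles changed sign with entries 1 base apart summed, to -0.16 over 12 circles against -0.13 over all tested, and with no filter on low counts, to -1.77 over all 41 entries against -1.09 over the table. It was -0.19 without HFD replicate 3 and -0.07 without chow replicate 3. The median over the gene sums changed sign without chow replicate 3, to 0.15 over 8 sums.

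The structure of the circles is given beside that of the whole table as a description, with no test of the differences. The Glis3 circle was known to be a single exon when the genes were chosen. Of 39 exonic entries 6 were listed with 1 exon (15.4%, against 5.64% over the table), among them the Nfib entry that matches no pair of exon ends, and 2 further entries, of Foxp1 and Ebf1, were intronic. The flanking introns had a median summed length of 51.0 kb over 38 placed entries against 16.9 kb over 8739. Entries of the same gene can share an intron, so the 38 are not independent. The host genes span from 100 kb (Nfix) to 597 kb (Foxp1), and the part of gene length was not tested. The median spliced length was 440.5 nt, against 549 nt over the table. Exon 2 was the first exon in 28.9% of both. A circRNA catalogue number stood beside 14 of the 41 entries (34.1%, against 27.1%).

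The junctions of the leading entries of 5 genes are given to identify them. The last 30 bases before the junction are in lower case and the first 30 after it in capitals. For Nfia the circle with the most reads is another one, once entries with starts 1 base apart are joined.
Nfix mmu_circ_0001704: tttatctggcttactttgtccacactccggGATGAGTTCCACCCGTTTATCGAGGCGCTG
Foxp1 circRNA1313: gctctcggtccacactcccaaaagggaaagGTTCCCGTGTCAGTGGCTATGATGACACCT
Mef2a circRNA2464: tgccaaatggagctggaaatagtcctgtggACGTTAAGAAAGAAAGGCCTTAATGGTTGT
Nfia circRNA1579: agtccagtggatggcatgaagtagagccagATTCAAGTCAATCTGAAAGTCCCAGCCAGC
Ebf1 circRNA6253: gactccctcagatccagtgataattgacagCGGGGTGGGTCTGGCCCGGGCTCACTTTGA

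Of the other genes of these families and pathways, 1 of 29 tested met the criteria (3.45%), near the 4.46% over all gene sums. Of 16 paralogues 7 had circRNA reads and 2 were tested, and none met the criteria. Mef2d led these with 1, 2 and 7 reads on HFD and 6, 0 and 9 on chow. Of 20 cofactors 13 had reads and 10 were tested. One, Vgll3, a partner of the Tead factors, met the criteria, with 0, 0 and 0 reads on HFD and 1, 4 and 7 on chow (edgeR adjusted p 0.67), and it passed the filter through its chow reads alone. Of 42 other vascular and mesenchymal lineage factors 23 had reads and 17 were tested, with none called. The most read were Zeb1, at 18, 19 and 16 reads on HFD and 14, 15 and 12 on chow, and the smooth muscle coactivator Myocd, at 11, 9 and 6 on HFD and 17, 16 and 21 on chow. Outside the members, 41 host genes had at least 100 reads. Of these, the relative levels of Cped1, Arhgap10 and Esyt2 over the 6 aortas lay nearest the summed 10 genes, with mean absolute differences of 0.067, 0.090 and 0.125. Nfix held 86.2% of the summed reads, so these are mainly neighbours of Nfix and not of the other members.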

How the data were processed

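Back-spliced reads were counted in 6 aortas. The deposited counts are back-spliced reads per circRNA that the authors called with CIRCexplorer and CIRI after TopHat-Fusion mapping, and the signal values (SRPBM) that the authors deposited are the same counts scaled to mapped reads. The log2 fold changes and p-values deposited by the authors were not used. Ensembl host names were mapped to symbols with GENCODE vM21, and circles were placed on its transcripts. Counts were fitted per circRNA and per host gene, as sums of all its entries, in edgeR 4.0.16 (TMM, quasi-likelihood test, no replicate block) under R 4.3.3, with entries seen in at least 2 of 6 aortas, and p was adjusted by Benjamini-Hochberg over all tested. Alternatives used library size alone, the authors' depth, DESeq2 1.42.0, limma 3.58.1, other filters, a replicate block and each aorta left out.

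DESeq2 was run with poscounts size factors, and its default size factors were added after the results had been seen. The members and lists were chosen with earlier results of these data known. By the rule for naming circles, the leading one of each gene is the entry with the most reads, then the most aortas. The rule also names those with at least 20 reads, single-exon circles in at least 3 aortas and those meeting the criteria. Further circles named in the text fall outside this rule and are given to describe the other entries of a gene. Ratios carry exact 95% counting intervals. Lists hold 2 genes under both an older and a newer symbol, which were counted once.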

Additional observations from a re-analysis of the deposited data

How the results depend on the processing

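Glis3, as exon 4 circle and as gene sum, kept its direction and met the criteria under all 16 alternatives run for each, but these use the same counts from which the genes were chosen and add no support. The number of circRNAs that met the criteria, 104 (33 higher on HFD, 71 lower), was 28 with DESeq2 and poscounts size factors, 23 with DESeq2's default size factors (an alternative added after the results were seen), 49 with at least 10 reads, and 57 to 117 with 1 aorta left out. For gene sums the number was 100 (38 higher, 62 lower), and it was 39 and 34 with these DESeq2 settings, 49 with at least 10 reads and 49 to 118 with 1 aorta left out. With the replicate number as a block it was 30 circRNAs and 41 gene sums. With library size alone the split was 40 higher and 43 lower for circRNAs and 47 and 42 for gene sums. The cause of these differences was not tested.

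Of the member circRNAs 1 met the criteria. The number was 2 with library size alone, 2 with reads in at least 3 aortas and 1 to 2 with 1 aorta left out. Beside Glis3 exon 4, these were circRNA6253 with library size alone and circRNA342 with reads in at least 3 aortas and without chow replicate 2. Without chow replicate 3 it was circRNA1579 of Nfia. All of these beside Glis3 exon 4 had reads in 1 diet alone and passed the filter through it. Of the member genes 1 met the criteria, against 1 to 2, with Foxp1 added without chow replicate 1. The ratio of HFD to chow of the summed level was 1.035, and 0.8625 on the SRPBM scale. With 1 aorta left out, 3 log2 fold changes changed sign: circRNA1313 of Foxp1 ranged from -0.225 to 0.8416, the Ebf1 sum from -1.217 to 0.3076 and the Mef2a sum from -0.468 to 1.208. Depth limits the comparison for the genes from Foxp1 to Tcf4, none of which had more than 19 reads over the 6 aortas.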

Other observations

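Markers of other cell types were read as host genes of circRNAs. Of 9 adipocyte marker genes 7 had reads, summing to 17.0, 12.5 and 18.5 per 10000 in HFD aortas and 21.1, 39.2 and 20.1 in chow aortas. Acaca, which makes malonyl-CoA for fatty acid synthesis, was the most abundant at 53 reads and met the criteria as lower on HFD (edgeR adjusted p 0.67), as 1 of 5 tested where 4.46% of all gene sums did. Without it, a split made after its values were seen, the other 6 genes overlapped between diets. Adipoq and Plin1 were at 0. Of 7 endothelial marker genes 4 had reads, 26 in all, led by Pecam1. Of 9 skeletal muscle marker genes 2 had reads, 13 in all, and 9 of these were Ttn reads in HFD replicate 3. Of 4 cardiac marker genes 1, Ryr2, had reads, with 11. None of 5 peripheral nerve marker genes had a read.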
